A study of Mus musculus with 35 samples.

Results

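The 10 genes described here encode the steps by which tumor cells take up glucose, break it down to lactate and export the acid, together with a carbonic anhydrase that marks low oxygen. They were chosen by name from the deposited count table: *Slc2a1*, *Hk2*, *Pfkp*, *Aldoa*, *Pgk1*, *Eno1*, *Pkm*, *Ldha*, *Slc16a3* and *Car9*, 10 of 53465 genes, and each was followed through all 35 libraries. *Aldoa* was listed under 2 identifiers with 868140 and 807 counts in all, and the former was used. The libraries are RNA-seq of mKate2+ tumor cells sorted from KC-shSmad4 tumors, a mouse pancreatic ductal adenocarcinoma (PDAC) model grown in 3 organs. The cells carry *Ptf1a*-Cre and a Cre-activated oncogene, and from the *Rosa26* locus they express mKate2 with the rtTA3 transactivator (LSL-rtTA3-IRES-mKate2). At *Col1a1* they hold an shRNA against *Smad4* that doxycycline (Dox) switches on together with GFP. Cre under *Ptf1a* acts in pancreatic cells, and the cells injected were lines derived from primary tumors of such mice. All hosts were female *Foxn1* nu nude mice of 6 to 8 weeks, which lack mature T cells. Cells were placed in the pancreas for primary tumors, in the spleen (then removed) for liver metastases and in the tail vein for lung metastases. Dox was withdrawn after 4, 5 and 6 weeks, respectively, so organ, route and weeks cannot be told apart. Libraries labelled Smad4 off came from mice kept on Dox and those labelled Smad4 on from mice 7 or 14 days after withdrawal, so the label and Dox itself cannot be told apart either. Pancreas tumors gave 3 off and 2 on libraries on day 7 and 2 off and 3 on libraries on day 14. Liver metastases gave 2 off and 3 on, then 3 of each, and lung metastases 4 off and 2 on, then 4 of each.

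Glycolysis turns glucose into pyruvate in the cytoplasm and yields ATP without oxygen. Under low oxygen the transcription factor HIF-1 is no longer degraded, binds the short sequence ACGTG or GCGTG near its targets, and raises transcription of glucose transporters, most glycolytic enzymes, lactate dehydrogenase and carbonic anhydrase 9. PDAC is a poorly perfused tumor.

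By role, *Slc2a1* (chr4:119108711-119137983, plus strand, GRCm38) encodes the glucose transporter GLUT1, and *Hk2* (chr6:82725025-82774454, minus strand) encodes hexokinase 2, which traps glucose as its phosphate. *Pfkp* (chr13:6579768-6648777, minus strand) encodes the platelet isoform of phosphofructokinase, and *Aldoa* (chr7:126795234-126800751, minus strand) the aldolase that splits the sugar. *Pgk1* (chrX:106187100-106203699, plus strand) and *Pkm* (chr9:59656368-59679375, plus strand) encode the enzymes that make ATP, and *Eno1* (chr4:150236721-150248879, plus strand) encodes the enolase between them. *Ldha* (chr7:46841475-46855627, plus strand) encodes the lactate dehydrogenase subunit that reduces pyruvate to lactate, and *Slc16a3* (chr11:120948480-120960868, plus strand) encodes MCT4, which exports lactate with a proton. *Car9* (chr4:43506966-43513729, plus strand) encodes a membrane carbonic anhydrase that handles extracellular acid and is widely used as a marker of hypoxic cells.

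Promoter windows from RefSeq (GRCm38.p6, 250 bases before to 50 after the transcript start) matched all 10 genes, with 16 windows in all. The letters ACGTG or GCGTG were found on either strand in 14 of the 16 windows and in at least 1 window of every gene. Over all 32851 promoter windows, 19.6% held ACGTG, 32.4% GCGTG and 43.8% either, so such letters are common. Windows of *Car9* and *Slc16a3* are shown because the clearest differences below are theirs, and that of *Ldha* because it held the most matches, 7 in all, with overlapping matches on both strands counted separately. The sequences run 5′ to 3′ on the strand of the gene, and capitals mark the matches.
Car9 chr4:43506776-43507075: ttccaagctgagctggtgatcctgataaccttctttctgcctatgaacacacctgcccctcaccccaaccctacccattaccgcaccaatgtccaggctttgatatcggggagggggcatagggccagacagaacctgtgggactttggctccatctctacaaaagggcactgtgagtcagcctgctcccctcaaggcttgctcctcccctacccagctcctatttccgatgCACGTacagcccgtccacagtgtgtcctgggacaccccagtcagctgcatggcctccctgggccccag
Slc16a3 chr11:120948817-120949116: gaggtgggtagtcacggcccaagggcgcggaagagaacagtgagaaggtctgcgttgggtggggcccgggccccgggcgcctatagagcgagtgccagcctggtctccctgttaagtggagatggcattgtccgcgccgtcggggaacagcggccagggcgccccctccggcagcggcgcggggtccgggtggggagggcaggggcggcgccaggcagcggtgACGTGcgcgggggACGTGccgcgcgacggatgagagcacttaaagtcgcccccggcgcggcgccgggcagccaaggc
Ldha chr7:46845554-46845853: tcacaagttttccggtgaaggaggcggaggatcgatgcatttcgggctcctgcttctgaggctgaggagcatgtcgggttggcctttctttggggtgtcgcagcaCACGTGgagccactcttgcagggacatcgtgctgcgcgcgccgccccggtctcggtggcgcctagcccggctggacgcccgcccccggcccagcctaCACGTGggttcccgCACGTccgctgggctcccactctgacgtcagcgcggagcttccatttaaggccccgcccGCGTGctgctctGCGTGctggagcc
The *Car9* window held 1 match, which began 18 bases before the start, and the *Slc16a3* window held 2, which began 27 and 14 bases before it. A match describes the letters of the window and is not a measured binding site.

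The libraries held 11885461 to 43571007 counts each, with a median of 19415320. *Smad4* mRNA went against the labels: it was 69.9 to 143 CPM (counts scaled to library size with TMM factors) in the 18 libraries labelled Smad4 off and 14.8 to 22.4 CPM in the 17 labelled Smad4 on. Groups are therefore named by their label throughout, and every difference below is for libraries labelled on against libraries labelled off. Carcinoma markers (*Epcam*, *Krt8*, *Krt18*, *Krt19*, *Cdh1*) were present in every library, with a summed level of 2181 to 14888 CPM. Their median was 3877 CPM in the pancreas (at most 6920 CPM), 13027 CPM in the liver and 8059 CPM in the lungs. The 7 fibroblast markers (*Col1a1*, *Col1a2*, *Col3a1*, *Dcn*, *Lum*, *Pdgfra*, *Pdgfrb*) summed to 8788 to 24265 CPM in the pancreas and 159 to 1989 CPM in the lungs. The liver library labelled Smad4 off on day 7 as replicate 2, the paired-end library of the series, stood apart: its fibroblast markers summed to 35799 CPM and its pancreatic acinar markers to 325 CPM, against at most 4309 and 0.538 CPM in the other 10 liver libraries, so its RNA goes against its liver label. The main results that rest on it are given with and without it. Other values of the liver on day 7 include it unless stated. A further split runs through the series: 10 liver and lung libraries had counts on the mitochondrial gene *mt-Co3* and the other 25 libraries, all those of the pancreas among them, had none. Of the 37 mitochondrial genes, 8 had counts in each of the 10 and 0 in each of the 25. In such bulk libraries, fewer cells of a type and less RNA per cell cannot be told apart.

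All 10 genes were measured far above the floor of 3 counts (0.0689 to 0.252 CPM) in every library and passed the filter on low counts in every comparison. Per kilobase of the deposited transcript length, the median level over 35 libraries was highest for *Aldoa* (365 CPM per kb), *Pkm* (362) and *Ldha* (340). These 3 neighbours overlapped in their quartiles, and *Aldoa* exceeded *Pkm* in 19 of 35 libraries. *Eno1* (112 CPM per kb) and *Pgk1* (109) followed, also overlapping, then *Slc2a1* (66.1). *Ldha* exceeded *Eno1*, and *Slc2a1* exceeded *Hk2*, in all 35 libraries. *Hk2* (28.6 CPM per kb) and *Car9* (25.6) did not separate, and *Hk2* was the higher in 17 of 35. *Pfkp* (10.0 CPM per kb) and *Slc16a3* (6.57), the exporter, were lowest. In CPM, the ratio of the highest to the lowest library was 3.74 for *Pfkp*, 3.93 for *Aldoa*, 4.15 for *Ldha* and 4.48 for *Pkm*, but 10.0 for *Slc16a3* and 13.6 for *Car9*, with *Pgk1* between these 2. *Slc2a1* (5.21), *Hk2* (5.48) and *Eno1* (8.68) lay between, so the acid-handling genes and *Pgk1* varied most over the series.

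Single libraries were high or low for most of the genes at once. The liver library of day 14 labelled off replicate 1, which had no *mt-Co3* counts, was among the 5 highest of 35 libraries for 8 of the 10 genes, and so was the lung library of day 7 labelled on replicate 2. The other lung library of day 7 labelled on was among the 5 lowest for 8 of the 10 genes, so the only 2 libraries of that group lie at opposite ends. Liver libraries of day 7 labelled on, replicates 1 and 2, were among the 5 lowest for 7 genes each.

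**Figure D1:**
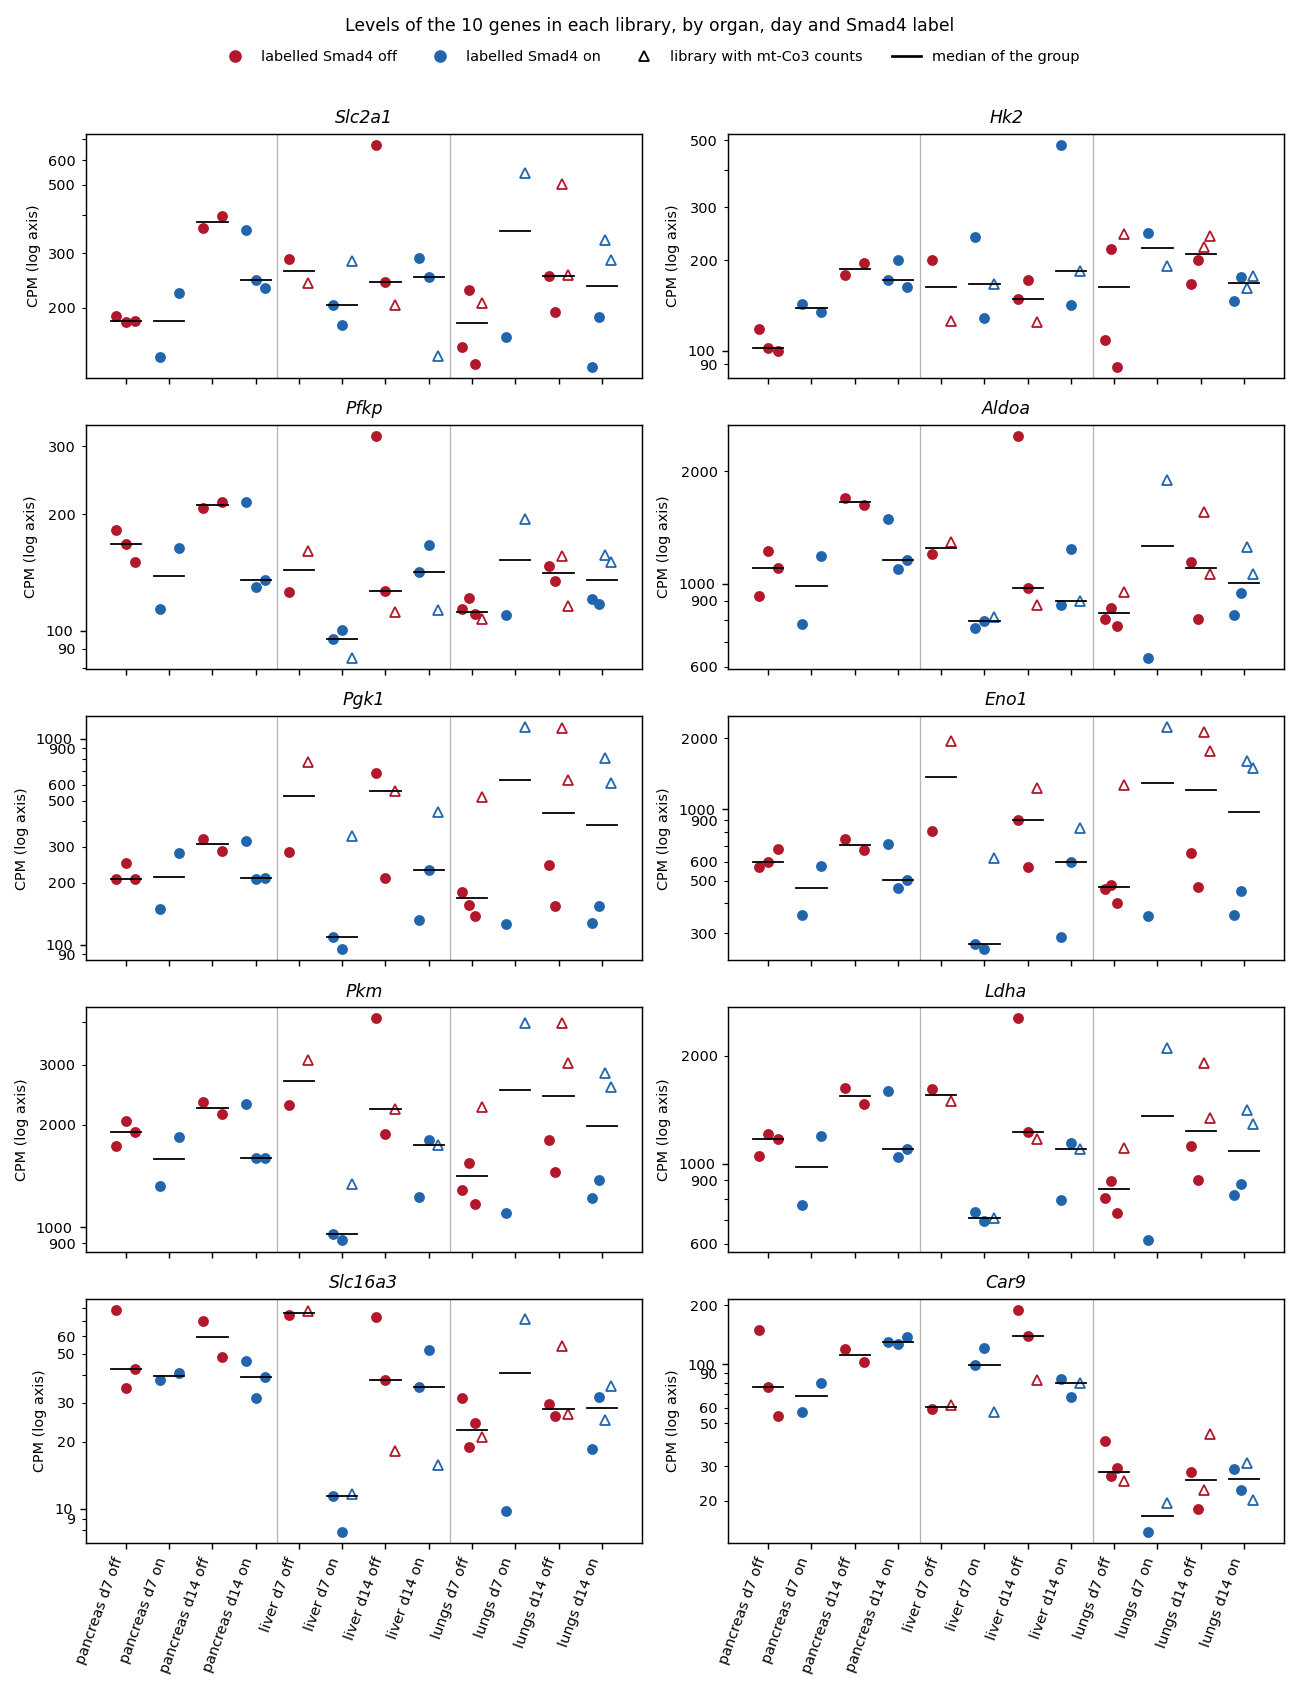
Level of each gene (CPM, log axis) in each of 35 libraries, grouped by organ, day and Smad4 label, with open triangles for the 10 libraries with *mt-Co3* counts and bars for group medians. *Car9* lies at 13.9 to 44.1 CPM in all lung libraries and at 54.2 CPM or more in all others, *Slc16a3* is at 7.87 to 11.6 CPM in the 3 liver libraries labelled on at day 7, and *Pgk1* and *Eno1* are mostly highest in the triangles.

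*Pgk1* and *Eno1*, and less so *Pkm*, were higher in the libraries with *mt-Co3* counts. *Pgk1* was 337 to 1140 CPM in the 10 such libraries (median 621 CPM) and 95.0 to 681 CPM in the 15 other liver and lung libraries (median 154 CPM). *Eno1* was 624 to 2224 CPM against 256.2 to 901 CPM, and *Pkm* 1340 to 3968 CPM against 916 to 4101 CPM. Both sets thus overlap for each of the 3, with a few libraries of the set without *mt-Co3* counts reaching high values. In a fit of 12 groups with the set as a term, edgeR's quasi-likelihood test gave log2 differences of 1.83 ± 0.21 (SE, adjusted P = 1.6e-07) for *Pgk1*, 1.53 ± 0.15 (adjusted P = 6.7e-09) for *Eno1* and 0.73 ± 0.16 (adjusted P = 0.00063) for *Pkm*. Of the 10 genes, 2 rose over 2-fold in that set, against 6.86% of 17547 genes, and 3 rose at an adjusted P under 0.05 with no fold threshold, against 17.7%. *Ldha* differed by 0.39 ± 0.16 (adjusted P = 0.057), and by 0.44 (adjusted P = 0.041) without the paired-end library. The log2 differences of *Slc16a3* (0.06 ± 0.29) and *Car9* (-0.11 ± 0.18) were smaller than their errors.

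The 3 genes that differed between the sets are also those that share most sequence with other genes. Of the 75-base windows in transcripts of *Pgk1*, 52.8% also occur in another gene's transcripts (GENCODE M21, either strand), among them *Pgk1-rs7*, and the share was 23.0% for *Eno1* (*Eno1b* and *Gm4735*) and 17.8% for *Pkm* (*Gm49759* and *Gm6560*). For the other 7 genes it was at most 4.87%, and 0% for *Hk2* and *Slc16a3*. Over all genes tested, the median log2 difference between the sets was -0.09 where no window was shared (8867 genes), 0.16 at shares over 15% to 50% (1829 genes) and 1.41 at shares over 50% (748 genes). *Eno1b* had 2516 to 8617 counts in the 10 libraries and 331 to 2426 counts in the 15, and *Pgk1-rs7* had 3 to 7 counts against 0 in each of the 15. *Gm49759* went the other way, with 287 to 1039 counts against 348 to 2802 counts. The part of shared reads in the levels of *Pgk1*, *Eno1* and *Pkm* was not tested, and how multiply aligned reads were counted in each set is not given in the sources used here. Levels of these 3 genes are therefore uncertain across the sets.

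**Figure D2:**
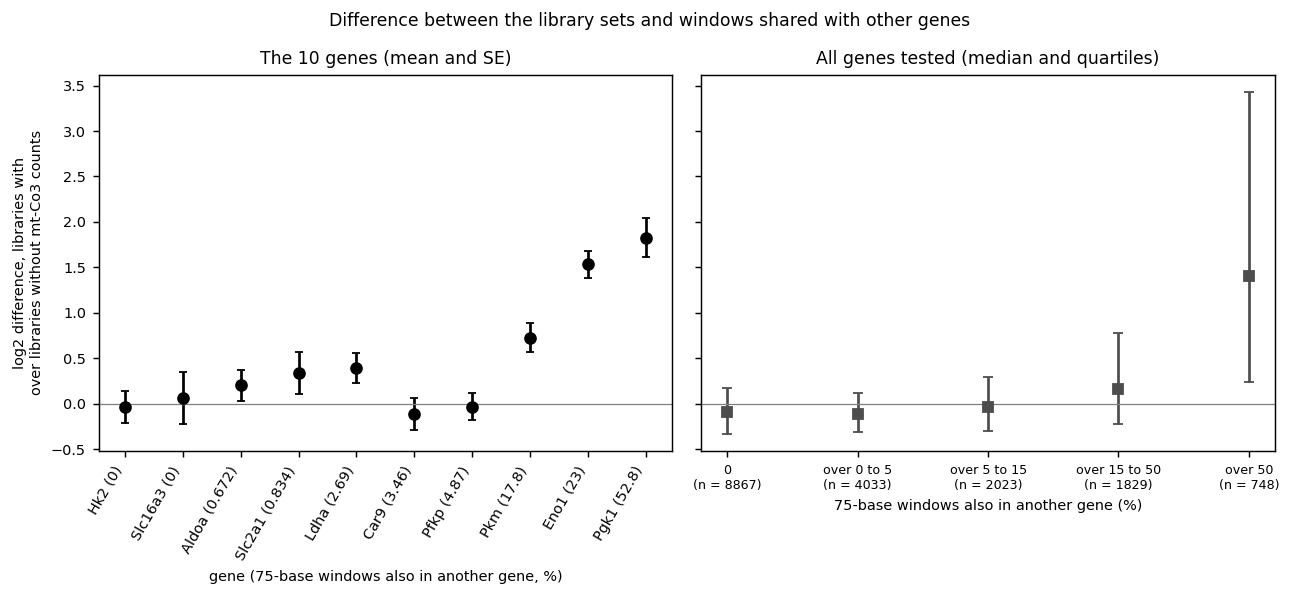
Left, log2 difference (mean and SE) between the 10 libraries with and the 25 without *mt-Co3* counts for the 10 genes, ordered by the percentage of their 75-base windows found in another gene. Right, the same difference over all genes tested (median and quartiles) in 5 classes of that percentage; *Pkm*, *Eno1* and *Pgk1* have both the highest shares and the largest differences of the 10, and the median over all genes is 1.41 at shares over 50%.

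The main question of the study is how tumor cells in each organ respond to *Smad4* restoration, and among the 10 genes the largest difference was that of the lactate exporter *Slc16a3* in the liver on day 7. *Slc16a3* was 74.4 and 77.8 CPM in the liver libraries labelled off and 11.5, 7.87 and 11.6 CPM in those labelled on. The groups do not overlap, and the 3 libraries labelled on are among the lowest of the series. It fell by 2.96 ± 0.23 on the log2 scale (7.80-fold lower) with an adjusted P of 0.0477 by edgeR. It was the only 1 of the 10 genes called lower (fold over 2 and adjusted P under 0.05), against 0.262% of 16007 genes. Without the paired-end library the log2 fold change was -2.96 (adjusted P = 0.0263), with *Ldha* called as well, 2 of 10 genes against 1.85%. That fit holds 1 library labelled off, which is taken to vary like the 3 labelled on. Leaving out any 1 of the 3 libraries labelled on ended the call, with log2 fold changes of -3.05 to -2.80 over all leave-one-out fits and adjusted P up to 0.242. The 6 hepatocyte markers (*Alb*, *Apoa1*, *Apoa2*, *Ttr*, *Serpina1a*, *Fgb*) in this comparison summed to 17.1 and 1.57 CPM in the libraries labelled off and 56.6 to 141 CPM in those labelled on, and the 5 leukocyte markers (*Ptprc*, *Cd68*, *Csf1r*, *Adgre1*, *Lyz2*) to 12.2 and 17.9 CPM against 33.0 to 55.3 CPM. Their part in the difference was not tested.

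The genes around pyruvate lay in the same direction in the liver on day 7. *Ldha* was 1615 and 1494 CPM in the libraries labelled off against 735, 692 and 707 CPM in those labelled on, a log2 fold change of -1.21 ± 0.21 (adjusted P = 0.061). *Pkm* was 2289 and 3094 CPM against 956, 916 and 1340 CPM (-1.41 ± 0.29, adjusted P = 0.072). *Aldoa* was 1202 and 1294 CPM against 761, 793 and 817 CPM (-0.74 ± 0.20, adjusted P = 0.099). For these 3 genes no library labelled on reached those labelled off, yet none passed the threshold by edgeR. DESeq2 called 4 of the 10 genes lower in this comparison, *Eno1*, *Pkm*, *Ldha* and *Slc16a3*, against 17.8% of all genes called in either direction. *Pfkp* (126 and 160 CPM against 95.0, 100 and 85.1 CPM, -0.69 ± 0.19, adjusted P = 0.097) had the same order. *Eno1* was 813 and 1936 CPM against 270, 256.2 and 624 CPM (-1.92 ± 0.56, adjusted P = 0.11), and *Pgk1* 282 and 777 CPM against 109, 95.0 and 337 CPM (-1.64 ± 0.71, adjusted P = 0.22). In both genes the highest library of each group is the one with *mt-Co3* counts, and the groups overlapped for *Pgk1*. In the group labelled off that is the paired-end library. Without it the log2 fold change was -0.76 for *Pgk1* and -1.21 for *Pkm*, with 1 library labelled off. Over all leave-one-out fits *Eno1* lay between -2.46 and -1.20. In all, 6 of the 10 genes had every library labelled on below every library labelled off, against 18.8% of the genes tested. With the set as a term, edgeR called 5 of the 10 genes lower, against 2.9% of all genes. They were *Slc16a3*, *Eno1*, *Ldha*, *Pgk1* and *Pkm* (adjusted P of 0.0386 to 0.04). Only 1 library of each label has *mt-Co3* counts here, and the one labelled off is the paired-end library. The set term of that fit, and so these calls, depend on it. In the 3 libraries without *mt-Co3* counts, 1 labelled off and 2 labelled on, the same 5 were called, against 7.05%, with the lone library taken to vary like the other group. That split was chosen after seeing the data. *Hk2*, at the entry of the pathway, was 200 and 126 CPM against 239, 129 and 167 CPM, and *Car9* was 59.1 and 62.0 CPM against 98.6, 121 and 56.7 CPM (log2 fold change 0.53 ± 0.35, adjusted P = 0.40). The groups overlapped for both, and the log2 fold change of *Hk2* was 0.04, or -0.27 without the paired-end library. With the paired-end library included, the median log2 fold change of the 10 genes was -0.98, beside -0.06 over all genes tested.

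In the 5 other organ and day comparisons edgeR and DESeq2 called 0 of the 10 genes. At an unadjusted P under 0.05, *Hk2* passed in the pancreas on day 7 and the lungs on day 14, *Car9* in the lungs on day 7 and the liver on day 14, and *Aldoa*, *Slc16a3* and *Car9* in the pancreas on day 14, that is 1 to 3 of the 10 where 5.22% to 28.6% of all genes passed. The share of all genes called was 1.33% in the pancreas on day 7, 4.64% in the pancreas on day 14, 0.0271% for the day 14 lungs, and 0% for both the day 7 lungs and the day 14 liver, where DESeq2 called 102 and 332 genes. The lowest adjusted P values of the 10 genes were 0.12 in the pancreas on day 7 (*Hk2*, 118, 102 and 99.9 CPM labelled off against 143 and 134 CPM labelled on) and 0.096 in the pancreas on day 14 (*Aldoa*, 1692 and 1627 CPM against 1487, 1098 and 1157 CPM). Neither pair of groups overlaps, but the log2 fold changes are small, 0.39 ± 0.12 and -0.39 ± 0.13. Without the day 14 pancreas library labelled on replicate 1, which left 2 against 2, *Slc2a1*, *Pfkp*, *Aldoa*, *Pgk1*, *Eno1*, *Pkm* and *Ldha* passed an adjusted P under 0.05 as lower (log2 fold changes of -0.65 to -0.47) and *Car9* as higher (0.27, adjusted P = 0.047), each by less than 2-fold. In that fit 11.6% of all genes passed as lower and 11.3% as higher. Fibroblast markers in the pancreas on day 7 summed to 11809 to 16861 CPM labelled off and 23308 and 24265 CPM labelled on, and their part in the *Hk2* values was not tested. In the liver on day 14, *Slc16a3* was 72.8, 38.1 and 18.3 CPM labelled off and 35.3, 51.9 and 15.8 CPM labelled on, so the gap of day 7 is not seen there (-0.38 ± 0.59, adjusted P = 0.89). In the same groups *Car9* was 189, 139 and 82.8 CPM against 84.4, 67.7 and 80.0 CPM (-0.87 ± 0.32, adjusted P = 0.45).

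In the lungs on day 7 the 9 genes other than *Car9* had positive log2 fold changes, of 0.41 to 1.37, with large errors. *Slc16a3* was 31.5, 19.0, 24.3 and 21.1 CPM in the libraries labelled off and 9.79 and 71.9 CPM in those labelled on (0.83 ± 0.66). Those 2 libraries lie below and above all 4 labelled off, and only the higher one has *mt-Co3* counts. In the 4 libraries without such counts *Slc16a3* differed by -1.35 (adjusted P = 0.16), with 1 library labelled on. In the lungs on day 14, all 10 log2 fold changes were negative, from -0.38 to -0.03, and *Slc16a3* was 29.7, 26.2, 54.2 and 26.6 CPM against 18.5, 31.9, 25.1 and 35.9 CPM. The groups overlapped for every one of the 10 genes.

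**Figure D3:**
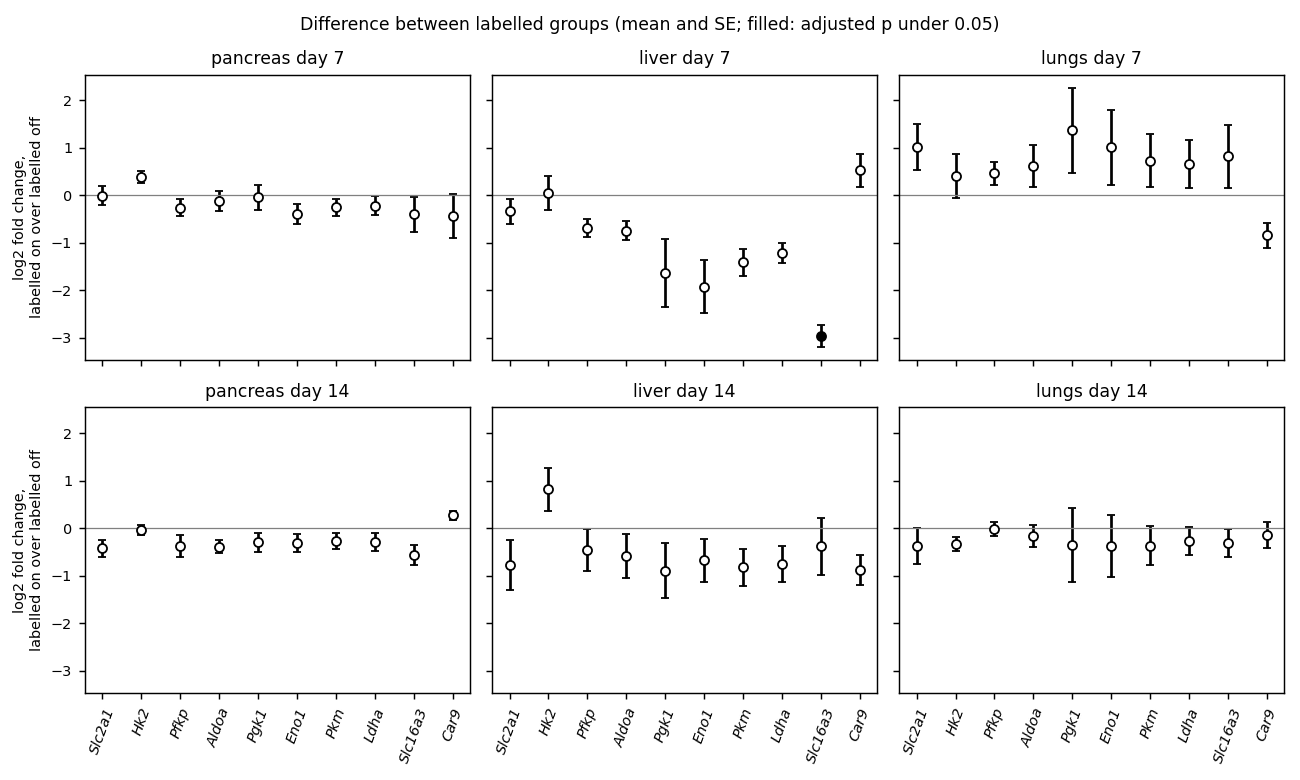
Log2 fold change (mean and SE) of libraries labelled Smad4 on over those labelled off for the 10 genes in each organ and day, filled where the adjusted P is under 0.05. The only filled point is *Slc16a3* in the liver on day 7 (-2.96), and the median of the 10 genes is below 0 in every panel except the lungs on day 7.

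Averaged over the 3 organs and 2 days in 1 fit of all 35 libraries, *Slc16a3* fell by 0.62 ± 0.22 on the log2 scale (adjusted P = 0.036), less than 2-fold. With the fold threshold, edgeR and DESeq2 called 0 of the 10 genes, against 6% of 17547 genes by edgeR, and 1 fell at an adjusted P under 0.05 alone, against 11.8%. That call was lost in 11 of 35 fits that left out 1 library (adjusted P up to 0.0764), without the paired-end library (-0.62, adjusted P = 0.057) and with the mouse number as a block (-0.73, adjusted P = 0.0677). *Ldha* (-0.34 ± 0.15, adjusted P = 0.099) and *Pkm* (-0.39 ± 0.17, adjusted P = 0.11) did not pass. Without the lung library of day 7 labelled on replicate 2, *Aldoa*, *Eno1*, *Pkm* and *Ldha* did pass (log2 differences of -0.78 to -0.42, adjusted P of 0.0036 to 0.043), as did *Slc16a3*, against 13.7% of all genes that passed as lower. With the *mt-Co3* set as a term, *Eno1* (-0.51, adjusted P = 0.0029), *Pkm* (-0.43, adjusted P = 0.013), *Ldha* (-0.36, adjusted P = 0.039) and *Slc16a3* (-0.63, adjusted P = 0.034) passed, 4 of 10 against 14.9% of all genes. In the 25 libraries without *mt-Co3* counts *Aldoa*, *Pgk1*, *Eno1*, *Pkm*, *Ldha* and *Slc16a3* passed with log2 fold changes of -0.98 to -0.41, 6 of 10 against 15.6%. *Slc2a1*, *Hk2*, *Pfkp* and *Car9* passed in none of these 3 fits.

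Whether the response differed between the metastatic sites was tested as the liver response minus the lung response. On day 7 that difference was -3.71 ± 0.82 for *Slc16a3* (adjusted P = 0.0519), and 0 of the 10 genes were called by edgeR against 1.86% of 16369 genes. At an unadjusted P under 0.05, 8 of the 10 genes passed, all but *Slc2a1* and *Hk2*, against 21.1% of all genes. DESeq2 called 5, *Pfkp*, *Pkm*, *Ldha* and *Slc16a3* lower and *Car9* higher, against 11.5%. Without the lung library labelled on replicate 1, which left 1 lung library labelled on, *Slc2a1*, *Pfkp*, *Aldoa*, *Pkm*, *Ldha* and *Slc16a3* were called lower (log2 differences of -4.59 to -1.51), 6 of 10 against 2.88% of all genes. The library that stays is the one that was among the 5 highest for 8 of the genes. Without the liver library labelled off replicate 1 *Slc16a3* was called (-3.68, adjusted P = 0.031). Without the paired-end library it was -3.72 (adjusted P = 0.098). In each of these 3 fits a group of 1 library is taken to vary like the other groups. In the libraries without *mt-Co3* counts -1.69 (adjusted P = 0.056). On day 14 it was -0.06 ± 0.67 for *Slc16a3*, and 0 of the 10 genes and 0% of all genes were called, with *Hk2* at an unadjusted P under 0.05 and 0 of the 10 by DESeq2.

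Between organs, *Car9* was lower in the lungs. It was 13.9 to 44.1 CPM in the 14 lung libraries (median 26.2 CPM), 54.2 to 149 CPM in the 10 pancreas libraries (median 111 CPM) and 56.7 to 189 CPM in the 11 liver libraries (median 82.8 CPM). No lung library reached the lowest library of the other organs. Group by group, the lungs held 40.6, 26.9, 29.6 and 25.4 CPM (day 7, labelled off), 13.9 and 19.6 CPM (day 7, labelled on), 28.2, 18.3, 22.8 and 44.1 CPM (day 14, labelled off) and 29.2, 22.6, 31.2 and 20.3 CPM (day 14, labelled on). The pancreas held 149, 76.0 and 54.2 CPM and 57.0 and 79.7 CPM on day 7, and 119 and 103 CPM and 129, 127 and 138 CPM on day 14, in the same order of labels. Within the pancreas the 5 libraries of day 14 all lie at 103 CPM or more, but the day difference did not pass (0.60 ± 0.26, adjusted P = 0.39).

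Lungs against pancreas, *Car9* fell by 1.99 ± 0.18 on the log2 scale (3.96-fold lower, adjusted P = 5.7e-09), and it was the only 1 of the 10 genes called, against 8.33% of all genes called lower and 21.8% called in either direction. Liver against lungs it rose by 1.82 ± 0.17 (3.54-fold, adjusted P = 5e-08), again the only 1 of the 10, against 4.02% called higher and 8.57% in either direction. Liver against pancreas it differed by -0.16 ± 0.18 (adjusted P = 0.48), and 0 of the 10 genes were called against 20.9%, with 0 at an unadjusted P under 0.05 and 0 by DESeq2. The lower level in the lungs was seen in libraries labelled off alone (-1.79, adjusted P = 2.1e-06, against the pancreas) and labelled on alone (-2.19, adjusted P = 6.6e-06), and in all 35 fits that left out 1 library (-2.09 to -1.86). A second gene was called without the lung library of day 7 labelled on replicate 1 (*Pgk1*, 1.01, adjusted P = 0.047) or replicate 2 (*Slc16a3*, -1.11, adjusted P = 0.0009). Without the paired-end library the liver and lungs differed by 1.82 (adjusted P = 2.3e-07). Lung epithelial markers (*Sftpa1*, *Sftpb*, *Sftpc*, *Scgb1a1*) summed to 58.7 to 473 CPM in the lung libraries and at most 0.667 CPM elsewhere, with 3 or 4 of the 4 at 0 in every pancreas library. Fibroblast markers were lower in the lungs than in the pancreas, as given above, but overlapped between the lungs and the liver (255 to 4309 CPM without the paired-end library). Carcinoma markers also differed in median between the organs, as given above. The part of these markers in the *Car9* difference was not tested.

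The other 9 genes gave different values in the 35 libraries and within 1 library set. *Eno1* in the lungs (354 to 2224 CPM) differed from the pancreas (358 to 746 CPM) by 0.79 ± 0.34 (adjusted P = 0.059), and *Pgk1* by 0.83 ± 0.42 (adjusted P = 0.10). With the *mt-Co3* set as a term these became -0.16 (adjusted P = 0.46) and -0.36 (adjusted P = 0.23), and in the 25 libraries without *mt-Co3* counts they were -0.44 (adjusted P = 0.027) and -0.70 (adjusted P = 0.015). So the direction of both genes depends on the set. *Slc16a3* was lower in the lungs by 0.59 ± 0.26 (adjusted P = 0.067), and by 1.22 (adjusted P = 0.00018) in the 25 libraries, where *Aldoa*, *Ldha*, *Pkm*, *Pfkp*, *Slc2a1* and *Car9* also passed. In those libraries 9 of 10 genes, all but *Hk2*, fell from pancreas to lungs at an adjusted P under 0.05, against 26.4% of all genes, and 6 of 10 rose from lungs to liver against 19.4%. The 25 libraries were set apart after seeing the data, and with the set as a term in all 35 libraries only *Car9* passed in either comparison.

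**Figure D4:**
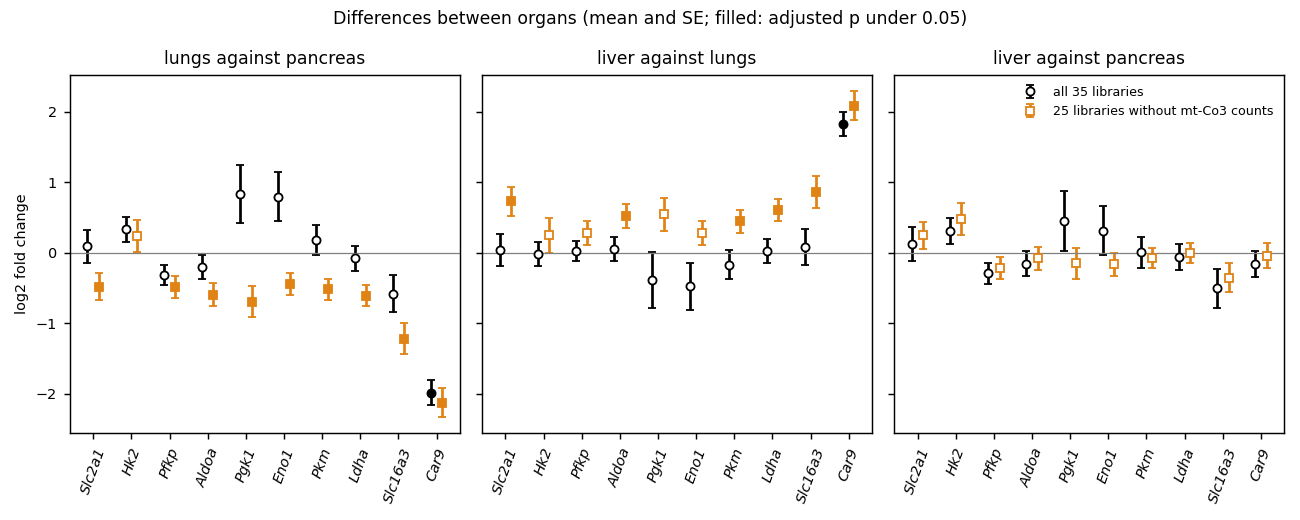
Log2 differences (mean and SE) between organs for the 10 genes in all 35 libraries (circles) and in the 25 libraries without *mt-Co3* counts (squares), filled where the adjusted P is under 0.05. *Car9* lies near -2 for lungs against pancreas and near 2 for liver against lungs in both, while *Slc2a1*, *Pgk1*, *Eno1* and *Pkm* change sign for lungs against pancreas.

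Between day 7 and day 14, edgeR and DESeq2 called 0 of the 10 genes in each organ, and edgeR called 0% of all genes in each. At an unadjusted P under 0.05, *Slc2a1*, *Hk2* and *Car9* passed in the pancreas, *Pfkp* in the liver and 0 genes in the lungs, beside 11.4%, 8.88% and 6.39% of all genes. The largest estimate was that of *Slc2a1* in the pancreas, with 139 to 223 CPM in the 5 libraries of day 7 and 232 to 396 CPM in the 5 of day 14 (0.84 ± 0.35, adjusted P = 0.36). All 5 later libraries lie above all 5 earlier ones. In the fit of the 25 libraries without *mt-Co3* counts the value was 0.85, less than 2-fold. That fit holds the same pancreas libraries, so it is not separate support. Days were compared over both labels, and the 2 days are separate mice.

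The enzymes from *Pfkp* to *Ldha* and the transporter *Slc2a1* varied together over the libraries. Over the 25 libraries without *mt-Co3* counts, the median Pearson r of log2 CPM over the 45 pairs was 0.78, and each of *Slc2a1*, *Pfkp*, *Aldoa*, *Pgk1*, *Eno1*, *Pkm* and *Ldha* had a median r of 0.78 to 0.89 with the other 9 genes. *Hk2* stood apart, with r between -0.27 and 0.35, and *Car9* had a median r of 0.47. Over the 10 libraries with *mt-Co3* counts, all 9 correlations of *Car9* were negative (-0.72 to -0.49, median -0.56). Over all 35 libraries the median of the 45 pairs was 0.56, and r between *Eno1* and *Car9* was -0.22. The libraries share organs, labels and sets, so these values are a description. The genes outside the 10 most like their mean pattern over 35 libraries were *Tpi1* (r = 0.92), *Higd1a* (0.91), *Bnip3* (0.90), *Gpi1* (0.89) and *Pfkl* (0.89). *Bnip3* itself differed between the library sets (log2 difference 1.23 ± 0.46, adjusted P = 0.035, and 0.053 without the paired-end library). The rest of these genes were also higher in the libraries with *mt-Co3* counts by edgeR. Log2 differences were 0.68 ± 0.23 for *Higd1a* (adjusted P = 0.019) and 0.66 ± 0.12 for *Pfkl* (adjusted P = 0.00011). For *Tpi1* the value was 0.57 ± 0.20 (adjusted P = 0.027) and for *Gpi1* 0.32 ± 0.13 (adjusted P = 0.048).

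**Figure D5:**
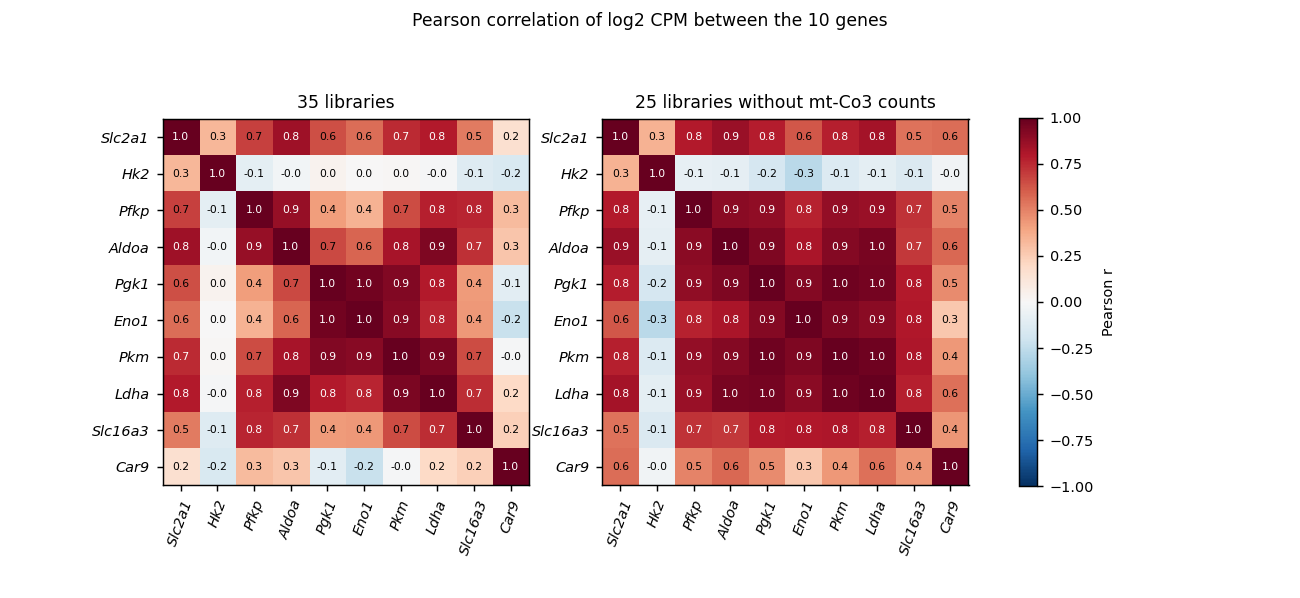
Pearson r of log2 CPM for each pair of the 10 genes over all 35 libraries (left) and over the 25 libraries without *mt-Co3* counts (right), with red for positive and blue for negative values. The *Hk2* row is near 0 in both, and the median over the 45 pairs is 0.56 on the left and 0.78 on the right.

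Other genes of the pathway were followed by fixed lists. Of 21 other glycolysis genes, 20 were tested in the pancreas on day 7, and edgeR called 1, against 1.33% of all genes. In the other 5 label comparisons it called 0. There 1 to 7 passed an unadjusted P under 0.05, beside 5.22% to 28.6% of all genes. DESeq2 called 3 in the day 7 liver, against 17.8% of all genes, and 0 in the rest. The gene called by edgeR was the neuronal enolase *Eno2*, which rose by 1.58 ± 0.28 (adjusted P = 0.047). It was at 4.18 to 7.75 CPM labelled off and 14.8 and 20.2 CPM labelled on. Of 18 other hypoxia targets, edgeR called 0 in each of the 6 label comparisons, and 0 to 12 passed an unadjusted P under 0.05. DESeq2 called *Adm* higher in the pancreas on day 7 and *Stc2* higher in the liver on day 14. The 12 were those of the liver on day 7, 9 with lower and 3 with higher values in libraries labelled on, of which DESeq2 called 6 lower and 3 higher. Of all genes, 27.1% passed an unadjusted P under 0.05 in that comparison and DESeq2 called 17.8%. Without the paired-end library edgeR called 5 of the 18 lower there (*Ankrd37*, *P4ha1*, *P4ha2*, *Fam162a* and *Plin2*) and 0 higher, against 1.85% of all genes called lower, with 1 library labelled off taken to vary like those labelled on. The median log2 fold change of that list was -0.61 in the liver on day 7, between that of all genes and that of the 10 genes.

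Among 8 genes of oxygen sensing, *Epas1*, which encodes HIF-2 alpha, rose in the liver on day 7, from 10.3 and 15.0 CPM labelled off to 72.8 to 103 CPM labelled on (2.63 ± 0.29, adjusted P = 0.048, and 2.37 ± 0.29, adjusted P = 0.028 without the paired-end library). Endothelial cells also express *Epas1*, and the 4 endothelial markers (*Pecam1*, *Cdh5*, *Kdr*, *Tek*) summed to 6.43 and 74.1 CPM labelled off and 7.64 to 8.38 CPM labelled on. In that comparison DESeq2 called *Epas1* higher and 2 of the 8 genes lower, *Hif1a* and *Egln1*, against 17.8% of all genes in either direction. By edgeR *Hif1a* also had an unadjusted P under 0.05 in the pancreas on both days and, as lower, in the liver and lungs on day 14. In the pancreas the genes of this list that passed, *Hif1a* among them, went both ways. They were 1 higher and 1 lower on day 7, and 2 higher and 3 lower on day 14. Of all genes, 23.1% and 28.6% passed in the pancreas, and 9.68% and 10.1% in the liver and lungs. The liver response exceeded the lung response on day 7 for *Epas1* (3.31 ± 0.67, adjusted P = 0.045). It lay below the lung response for the oxygen sensor *Egln1* (-1.63 ± 0.34, adjusted P = 0.048), the collagen prolyl hydroxylase subunits *P4ha1* (-2.56 ± 0.46, adjusted P = 0.038) and *P4ha2* (-1.92 ± 0.38, adjusted P = 0.042) and the muscle enolase *Eno3* (-4.33 ± 0.93, adjusted P = 0.048). Without the paired-end library all 5 kept their sign (3.03 for *Epas1*, -1.24 for *Egln1*, -2.35 for *P4ha1*, -2.01 for *P4ha2* and -4.85 for *Eno3*) with adjusted P of 0.0763 to 0.109, none past the threshold, in a fit with 1 liver library labelled off.

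*Pklr*, the liver and red cell pyruvate kinase, rose in the pancreas on day 14 (1.43 ± 0.31 on the log2 scale, adjusted P = 0.029), and averaged over organs and days it rose by 1.00 ± 0.19 (adjusted P = 0.00042), or by 0.87 without the paired-end library. Of the 10 paralogs and copies on the list, 5 were tested in the average and 2 were called, *Pklr* among them, against 6% of all genes. In the pancreas on day 14, 4.64% of all genes were called. *Pkm* had negative values in both comparisons. Hepatocyte markers in the pancreas summed to 1.66 and 2.37 CPM labelled off and 6.51 to 10.8 CPM labelled on at day 14, and their part in the *Pklr* values was not tested.

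Between organs, the lists held calls in both directions. Of the 7 gluconeogenesis genes, 6 were tested, and 4 were called higher in the liver and 3 higher in the lungs than in the pancreas, against 11.5% and 13.4% of all genes called higher, and 0 were lower by edgeR or DESeq2. *Pcx*, which makes oxaloacetate from pyruvate, was 9.20 to 25.6 CPM in pancreas libraries, 19.8 to 59.3 CPM in liver and 24.3 to 41.1 CPM in lung libraries, with log2 differences from the pancreas of 1.29 ± 0.14 and 1.07 ± 0.13. *Fbp2*, a fructose bisphosphatase, was also higher (2.91 ± 0.31 for liver, 1.70 ± 0.29 for lungs). *Pck1* was at 0 in all 10 pancreas libraries and at most 3.69 CPM in liver and 0.687 CPM in lung libraries, and *Fbp1* did not exceed 1.36 CPM in any library. Hepatocyte markers summed to 1.66 to 10.8 CPM in pancreas, 1.57 to 141 CPM in liver and 3.81 to 56.2 CPM in lung libraries, and their part in these differences was not tested.

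Of the 18 hypoxia targets, 4 were called lower and 1 higher in the lungs than in the pancreas, where 8.33% and 13.4% of all genes were, so that 5 of 18 stand beside 21.8% called in either direction. *P4ha1* was 276 to 551 CPM in pancreas, 36.4 to 377 CPM in liver and 57.0 to 143 CPM in lung libraries (-1.62 ± 0.22 and -2.01 ± 0.21 from the pancreas). *P4ha2*, *Adm* and *Ankrd37* had log2 differences of -1.26, -1.37 and -1.40 in the lungs, and *Stc2* of 1.41. *P4ha1* and *P4ha2* serve collagen synthesis, and the fibroblast markers had their highest median in the pancreas (14804 CPM, against 931 CPM in liver and 409 CPM in lung libraries), although the single highest sum was that of the paired-end liver library. Their part was not tested. The oxygen sensor *Egln3* was lower in the lungs than in the pancreas (-1.26 ± 0.24, adjusted P = 0.00012). *Pdk4*, which inhibits pyruvate dehydrogenase, was higher in the liver (4.21 ± 0.51) and lungs (2.38 ± 0.48) than in the pancreas. Its relative *Pdk1* was lower in the lungs (-1.04 ± 0.21, adjusted P = 0.00022). *Eno2* was lower in the liver (-1.90 ± 0.23) and lungs (-1.98 ± 0.22) than in the pancreas, and *Pklr* was higher in both (1.72 ± 0.25 and 1.81 ± 0.25). Liver against lungs, *Adm*, which encodes adrenomedullin (1.36 ± 0.27, adjusted P = 0.00074), and the carbonic anhydrase *Car12* (1.52 ± 0.35, adjusted P = 0.0026) were higher, as *Car9* was. *Car12* was much the rarer, at 0.799 to 15.6 CPM in the liver. The median log2 difference over the 18 hypoxia targets was -0.30 for lungs against pancreas and 0.12 for liver against lungs, beside 0.06 and 0.02 over all genes.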

How the data were processed

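Sequencing libraries (TruSeq Stranded mRNA, 75-bp reads, 1 liver library paired-end) were made from sorted mKate2+ cells of separate mice. Per the labels, the authors used FastQC 0.11.5, Trimmomatic 0.36, STAR 2.5.3a and featureCounts 1.6.3 with GRCm38 (Ensembl release 91), and deposited raw read counts per gene in 1 table. How reads with several alignments were counted is not given in the sources used here. The deposited columns matched all 35 labels by title.

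Counts were tested with edgeR 4.0.16 (TMM scaling, quasi-likelihood F-test, R 4.3.3) after filterByExpr (minimum count 10, minimum total 15), with Benjamini-Hochberg adjustment over all genes tested. Genes were called at a fold over 2 and an adjusted P under 0.05, as in the study. Each organ and day was fitted alone for the label response, liver and lungs of a day together for the difference of responses, and all 12 groups together for averages, organs and days. CPM in the text were scaled by TMM over 35 libraries, and log2 CPM used a prior count of 0.5. The fits were tested on simulated counts, and pandas 2.3.3, numpy 2.4.6 and matplotlib 3.10.9 under Python 3.11.15 gave the summaries and plots. Alternatives were DESeq2 1.42.0, its size factors in edgeR, other filters, the library set as a term, 1 fit of 12 groups, a block for the mouse number, each label alone and leaving out the paired-end or any 1 library. The restriction to the 25 libraries without *mt-Co3* counts and the test between library sets were added after seeing the data.

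The 10 genes and the other lists were chosen with earlier results of these data known. Within the lists, genes to name were ranked by lowest adjusted P among those called, at most 4 in each direction and comparison. Not every gene that met this rule is named in the text. The 5 genes most like the mean of the 10 were taken by Pearson r. The libraries held 11885461 to 43571007 counts, so that the floor of 3 counts was 0.0689 to 0.252 CPM, which covers counting error only. Titles number the mice, with nothing on whether a number marks the same animal in both labels. Same-numbered libraries deviated together from their group means at day 14 in the liver (r of 0.14 to 0.54 over genes) and the lungs (0.46 to 0.52), where they also share the library set. Differently numbered pairs had r of -0.43 to 0.37 in the liver and -0.57 to 0.54 in the lungs. Those r were positive where both libraries share the set and negative where they do not. In the other 4 comparisons a group has 2 libraries, whose deviations mirror each other, so r cannot show pairing there. P values measure the spread between mice of a group, and organ and route of injection were not separable. Genes with reads shared among near-identical copies were assessed by 75-base windows of GENCODE M21 transcripts. Some genes and alleles are not reported here.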

Additional observations from a re-analysis of the deposited data

Results flagged for a closer look

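Of 30 sets of 4 libraries (10 genes in 3 lung groups), 3 held a library far from the other 3 by Dixon's ratio of its gap to the range, and chance gives about 1 in 20. In the lungs labelled off on day 7, *Pgk1* had a ratio of 0.889, with 520 CPM in replicate 4 against 138 to 180 CPM in the other libraries. *Eno1* had a ratio of 0.913 there, with 1267 CPM in the same replicate against 402 to 477 CPM. That replicate is the only library of the group with *mt-Co3* counts, and the part of the library set in these values was not tested. In the lungs labelled off on day 14, *Slc16a3* had a ratio of 0.874, with 54.2 CPM in replicate 3 against 26.2 to 29.7 CPM.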

How the results depend on the processing

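In the liver on day 7, the number of the 10 genes called was 1, against 0.262% of all genes called lower. DESeq2 called 4, against 17.8% in either direction, and with the library set as a term 5 were called, against 2.9% called lower. That set term rests on 1 library of each label, the paired-end one among them. Without the filter on low counts the number was 3, as in 1 fit of 12 groups, with the shares of all genes not set out here. With the replicate block it was 0, and *Slc16a3* was -3.08 (adjusted P = 0.223 by edgeR). Leaving out any 1 of the libraries labelled on gave 0. The number also moved in fits that left 1 library labelled off, which are not set out here. Same-numbered pairs in the liver on day 7 had r of 0.32 and -0.30. With 2 libraries labelled off, their deviations from the group mean mirror each other, so r cannot tell whether the numbers pair those libraries. The averaged label response called 1 gene with no fold threshold against 0 with it, and *Slc16a3* there lost its adjusted P without the filter (-0.64, adjusted P = 0.091), with the block (-0.73, adjusted P = 0.0677) and in 11 of 35 fits that left out 1 library. Liver against pancreas, the main fit called 0 of the 10 and 20.9% of all genes, and 1 gene was called in libraries labelled on alone. The main fit of lungs against pancreas called 1 of the 10 and 21.8% of all genes. Shares of all genes in the alternative fits of organs are not set out here. Lungs against pancreas, 2 genes were called in the libraries without *mt-Co3* counts and 1 to 2 when 1 library was left out. In the former, *Slc2a1* was -0.485, *Pgk1* -0.695, *Eno1* -0.439 and *Pkm* -0.519, each with the sign opposite to that in all 35 libraries, as was *Pkm* at 0.442 for liver against lungs. For the liver response minus the lung response on day 7, 5 genes were called by DESeq2, 1 with its size factors in edgeR, 1 among genes with at least 10 counts in every library, 1 with the library set as a term, 4 in the libraries without *mt-Co3* counts and 0 to 6 when 1 library was left out. The cause of these shifts was not tested. The other 117 recomputed counts of called genes were unchanged within 1.5 times. The block changed no other call. No paired analysis was possible because the block lies within organ and day, for the organ and day differences. A label fit with the library set as a term could not be made in the pancreas, which has 1 set. Restricting to libraries without *mt-Co3* counts leaves the label fits there unchanged. Depth limited none of the 10 genes, and the small groups of 2 to 4 mice limit what the label comparisons can show.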
